A study of Mus musculus with 6 samples.

Results

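HOXA13 and HOXD13 binding was compared in the developing mouse forelimb, using the peak lists of the 2 factors from whole forelimb buds labelled embryonic day 11 (E11). Stages are given here as in the labels, which leave out the fraction of a day stated in the study's methods. All regions on the 19 autosomes and chromosome X were taken, rows with the same interval being collapsed to 1 region. This left 66761 HOXA13 and 52660 HOXD13 regions, 119421 of the 379158 regions in the 8 peak lists of the series. A region was called shared where it overlapped a region of the other list by at least 1 bp, which gave 41361 shared and 25400 HOXA13-only regions in the HOXA13 list, and 42558 shared and 10102 HOXD13-only regions in the HOXD13 list.

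The series itself held 6 ChIP-seq samples of wild-type B6CBAF1 forelimb buds at E12, each bud being cut into a distal piece (DFL, the future digits) and a proximal piece (PFL), with 1 library per piece for H3K27ac, H3K27me3 and CTCF. The HOX13 lists belonged to none of these samples and came from wild-type whole buds of an earlier stage, a pool of tissue with 1 library per factor. No replicate was therefore at hand, no p-value was computed, and a difference between the lists cannot be told apart from a difference between 2 libraries and 2 antibodies. Intervals in parentheses are 95% Wilson intervals, or exact Poisson intervals for fragment numbers. They cover counting error only.

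HOXA13 and HOXD13 are the most posterior paralogs of the HoxA and HoxD clusters, and carry closely related DNA-binding homeodomains. Both are produced in the distal limb bud, where they are required together to form the digits. HOX13 proteins prefer AT-rich words that end in ATAAA or GTAAA, whereas many anterior HOX proteins favour a TAAT core.

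The windows below show 50 bp on each side of the highest summit (mm10, plus strand, 5′ to 3′), and capitals mark the words CNATAAA or CGTAAA on either strand, N being any base. The first set holds the shared pairs that ranked highest by fold in both lists at once, around the HOXA13 summit, each named after the nearest protein-coding gene.
Asprv1, chr6:86624250-86624350: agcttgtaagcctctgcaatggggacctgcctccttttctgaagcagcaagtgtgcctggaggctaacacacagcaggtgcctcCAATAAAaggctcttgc
Ntm, chr9:29318891-29318991: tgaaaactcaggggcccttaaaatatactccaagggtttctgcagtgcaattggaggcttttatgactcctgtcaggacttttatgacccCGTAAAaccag
Tle3, chr9:61084937-61085037: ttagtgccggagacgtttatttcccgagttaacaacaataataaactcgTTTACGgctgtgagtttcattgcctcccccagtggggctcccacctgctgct
Cntfr, chr4:41672233-41672333: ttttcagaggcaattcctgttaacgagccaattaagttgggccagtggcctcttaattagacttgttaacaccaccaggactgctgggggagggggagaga

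The second set holds HOXA13-only regions of highest fold.
Golim4, chr3:75891242-75891342: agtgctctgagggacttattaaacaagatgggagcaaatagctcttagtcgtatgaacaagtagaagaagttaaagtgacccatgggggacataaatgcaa
G6pd2, chr5:61117472-61117572: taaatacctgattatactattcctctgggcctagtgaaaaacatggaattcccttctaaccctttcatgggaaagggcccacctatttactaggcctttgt
4930535I16Rik, chr4:124093359-124093459: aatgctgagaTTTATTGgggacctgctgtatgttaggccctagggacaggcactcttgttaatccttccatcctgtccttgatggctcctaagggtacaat
Prim2, chr1:33210024-33210124: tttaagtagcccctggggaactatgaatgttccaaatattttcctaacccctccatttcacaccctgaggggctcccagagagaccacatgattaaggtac

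The third set holds HOXD13-only regions of highest fold whose windows held no annotated exon. All 4 lay at promoters.
Cdca7, chr2:72476013-72476113: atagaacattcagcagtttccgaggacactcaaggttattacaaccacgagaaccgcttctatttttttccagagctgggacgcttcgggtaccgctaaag
Rnf187, chr11:58938938-58939038: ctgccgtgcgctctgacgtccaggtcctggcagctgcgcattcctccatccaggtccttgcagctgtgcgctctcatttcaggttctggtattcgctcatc
Ccdc85c, chr12:108275708-108275808: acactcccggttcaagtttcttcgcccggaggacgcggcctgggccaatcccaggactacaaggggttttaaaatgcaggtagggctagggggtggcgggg
Pip5k1c, chr10:81293198-81293298: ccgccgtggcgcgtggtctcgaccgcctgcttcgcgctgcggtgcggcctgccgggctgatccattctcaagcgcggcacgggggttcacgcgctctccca

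None of the 4 shared sites lay at a promoter, the Asprv1 site being in H3K27ac regions of both limb pieces and the Ntm site in one of PFL. The 4 HOXA13-only sites lay in the Golim4 intron or between genes, and overlapped no region of the 6 mark and CTCF lists. The 4 HOXD13-only sites were within 333 bp of a transcript start and carried H3K27ac in both DFL and PFL. Marked words were found in 3 of the 4 shared windows, in 1 HOXA13-only window and in no HOXD13-only window printed here. Over the 10 regions of highest fold per class, such words were in 2 of 10 HOXA13-only and 2 of 10 HOXD13-only windows, too few to compare the classes.

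Fold enrichment, the unit of strength used here, is the fragment pileup at the summit over the local background of the same library, with 1 added to each. Depth was read from the lists, since they give no read totals. The study reports more sequenced read pairs for the HOXD13 than for the HOXA13 library, although the HOXD13 list was the shorter. The lowest local background was 6.10 fragments for HOXA13 and 7.71 for HOXD13. The weakest region held 16 fragments in the HOXA13 list (9.15 to 26.0) and 19 in the HOXD13 list (11.4 to 29.7). At this lowest background, a region needed a fold of at least 2.39 to be listed for HOXA13 and 2.29 for HOXD13. A site absent from a list was hence below detection at that depth, which is not the same as unbound, and the lists do not give the signal there.

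Binding of the 2 factors overlapped most at strong sites. HOXA13 shared 61.95% of its regions (61.6 to 62.3%) and HOXD13 80.8% (80.5 to 81.2%). In the weakest decile of the HOXA13 list, median fold 2.39, 27.8% of regions were shared, while in the strongest decile, median fold 9.51, 99.6% were. The HOXD13 list went from 47.4% at a median fold of 2.30 to 99.9% at 9.21. At like strength HOXD13 regions were shared more often, for example 82.1% of the HOXD13 decile with median fold 3.19 against 42.5% of the HOXA13 decile with median fold 3.10, although folds of the 2 libraries rest on different backgrounds. The totals divided much the same overlaps by lists of different length. In 41231 of the 42689 overlaps each region was the best match of the other. Shares of lists of equal size must therefore lie close together, and cannot tell why the totals differed. With only the 52660 HOXA13 regions of highest −log10 q kept, so that both lists were of equal size, 72.2% of HOXA13 (71.8 to 72.5%) and 74.5% of HOXD13 regions (74.1 to 74.9%) were shared. The shares did not depend on a few chromosomes and lay between 57.7 and 65.0% for HOXA13 and between 77.4 and 83.2% for HOXD13, chromosome X being lowest in both.

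**Figure D1:**
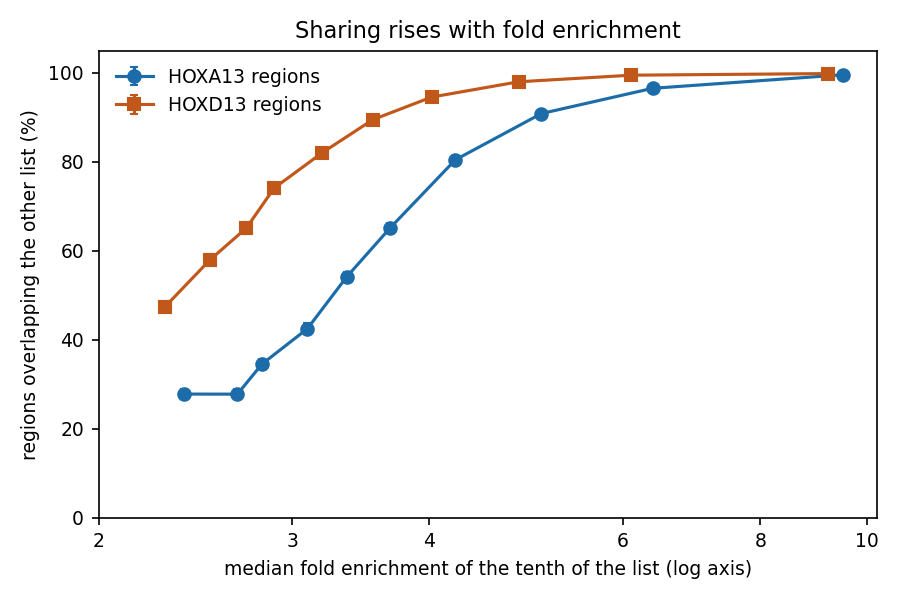
Percent of HOXA13 (circles) and HOXD13 (squares) regions that overlapped the other list, for deciles of each list ordered by fold, against the median fold of the decile on a log axis, with 95% Wilson intervals that are mostly smaller than the symbols. HOXA13 rises from 27.8 to 99.6% and HOXD13 from 47.4 to 99.9%.

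Single-factor regions were accordingly weak and short. The median fold was 4.38 at shared and 2.84 at HOXA13-only regions in the HOXA13 list, a ratio of 1.54. In the HOXD13 list it was 3.67 at shared and 2.64 at HOXD13-only regions, a ratio of 1.39. A fold of 5 was reached by 39.7% of shared and 2.04% of HOXA13-only regions, and by 28.4% of shared and 0.515% of HOXD13-only regions in their own lists. The strongest HOXA13-only region, in the Golim4 intron, had a fold of 11.5, and the strongest HOXD13-only region, at the Cdca7 promoter, a fold of 16.0. Median region length was 250 bp for HOXA13-only against 480 bp for shared HOXA13 regions, and 166 bp for HOXD13-only against 327 bp for shared HOXD13 regions.

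Few classes hung on the exact edges of a region. Of the 42689 overlaps only 154 were of 1 to 20 bp, with median folds of 2.89 (HOXA13) and 2.64 (HOXD13). On the other side of the limit, 104 HOXA13-only and 121 HOXD13-only regions ended less than 20 bp from a region of the other factor. The median HOXA13-only region was 11434 bp away from the nearest HOXD13 region, and 12.2% were closer than 1 kb. HOXD13-only regions were nearer to HOXA13, with a median of 5178.5 bp and 24.7% closer than 1 kb. The HOXA13 list was the longer, and more HOXD13-only regions lay at promoters. The part of either in these distances was not tested.

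At shared sites the 2 factors had much the same strength. Where several regions overlapped, the strongest partners were kept when each was the best match of the other, which gave 41231 pairs. Over these pairs the log2 folds correlated with Pearson's r of 0.81 and Spearman's rho of 0.74, a description across regions of 2 libraries that share base composition and mappability. Of the 1000 strongest regions of each list, 622 were paired with each other. The HOXA13 fold was above the HOXD13 fold in 68.2% of pairs, with a median log2 ratio of 0.17 and 90% of pairs between -0.44 and 0.85. A HOXA13 fold of at least 2 times the HOXD13 fold was found in 1063 pairs, 2.58%, and the reverse in 108 pairs, 0.262%. A general offset of this size depends on the background of each library, since pileup over the lowest background gave a median log2 ratio of 0.38, so that which fold is the higher at a single pair also depends on it.

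**Figure D2:**
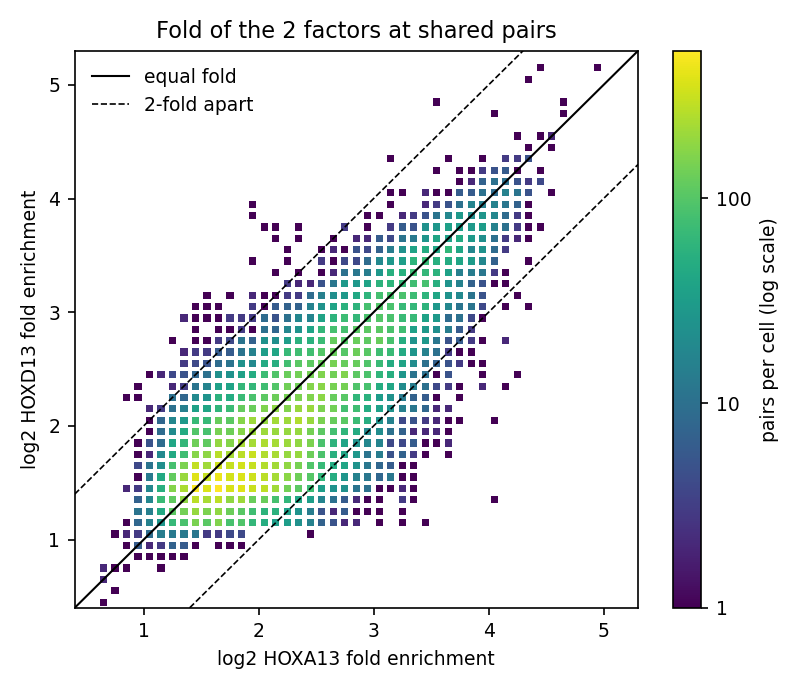
Log2 fold of HOXA13 (x axis) against HOXD13 (y axis) for the 41231 pairs, colour giving the number of pairs per cell of 0.1 by 0.1 on a log scale. The solid line marks equal fold and the dashed lines a 2-fold difference, outside of which lie 1063 pairs towards HOXA13 and 108 towards HOXD13.

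The pair that ranked first in both lists overlapped all 6 mark and CTCF lists, and such pairs were left out here. The 10 remaining pairs that ranked highest in both lists had HOXA13 folds of 20.03 to 25.2 and HOXD13 folds of 19.4 to 28.0. They lay near Asprv1, an epidermal protease gene, Ntm and Cntn6, which encode neural adhesion proteins, Tle3, a Groucho-type corepressor, Cntfr, a cytokine receptor subunit, Dysf, Chst11, a chondroitin sulfotransferase needed for cartilage, Prtg, Kif26a and Eya4. None was at a promoter and 7 of the 10 overlapped H3K27ac of at least 1 limb piece. The Ntm pair, 92795 bp from the nearest start, held 1268 HOXA13 fragments (1199 to 1340) and 836 HOXD13 fragments (780 to 895), with summits 1 bp apart. The Asprv1 pair held 792 (738 to 849) and 762 fragments (709 to 818), with summits 18 bp apart. A word CNATAAA or CGTAAA was present in 6 of the 10 windows around the HOXA13 summit. Nearest genes are given as positions, since distances reached 287379 bp (Tle3).

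Pairs that leaned most to 1 factor differed in where they lay. The 5 pairs leaning most to HOXD13, among pairs with a fold of at least 5 in 1 list, included 3 promoters of broadly expressed genes, Taf6 (a general transcription factor subunit), Camkmt (a calmodulin methyltransferase) and Rpl32 (a ribosomal protein). At Taf6 the HOXD13 fold was 15.7 from 169 fragments (144 to 196) and the HOXA13 fold 3.94 from 27 fragments (17.8 to 39.3). At Camkmt the folds were 14.6 and 3.801, and at Rpl32 13.7 and 4.08. The other pairs of this group were intergenic, near I0C0044D17Rik and Epha4. The 5 pairs leaning most to HOXA13 held no promoter. They lay near Dynlt1b, Thap1, 4931429L15Rik, Erich3 and Iqgap2, and 4 of the 5 overlapped no region of the other lists. At Dynlt1b, chr17:6476392-6477050, the HOXA13 fold was 16.6 from 117 fragments (96.8 to 140) and the HOXD13 fold 2.53 from 21 fragments (12.999 to 32.1).

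Over all pairs the lean was in the same order, though small against its spread. The median log2 ratio was 0.12 at 3748 promoter pairs and 0.18 at 37483 other pairs, against quartiles of -0.07 and 0.43 over all pairs. Promoters made up 37 of the 108 pairs with a 2-fold higher HOXD13 fold and 60 of the 1063 with a 2-fold higher HOXA13 fold. By word, the median was 0.29 for pairs with TCGTAAA within 50 bp of the HOXA13 summit, 0.22 with CAATAAA and 0.06 with the GC box GGGCGG. Pairs with H3K27ac in DFL alone (0.15) and in both pieces (0.15) were close to each other, while pairs with H3K27ac in PFL alone had a median of 0.21 and pairs with none 0.18. CTCF made little difference, 0.18 with and 0.17 without a DFL CTCF region.

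Summits of the 2 factors lay close together, the more so at strong sites. The median distance between the highest summits of a pair was 35 bp, with quartiles of 15 and 72 bp, 18.1% being within 10 bp and 5.63% more than 200 bp apart. Where the weaker fold of the pair was below 2.5 the median was 62 bp, and it shortened in every class to 13 bp in the 1611 pairs with both folds of 10 or more, of which 95.8% had summits within 50 bp and 0 lay beyond 200 bp. In pairs with a single summit in each region the median was 32 bp, against 49 bp in the others. At promoters summits were further apart, 53 bp against 33 bp elsewhere, and with CAATAAA near the summit they were closer, 27 bp against 36 bp. There was no side preference along the chromosome, with the HOXA13 summit at the higher coordinate in 20537 and the HOXD13 summit in 20311 pairs. Kept to regions of fold 5 or more, the median distance was 19 bp.

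**Figure D3:**
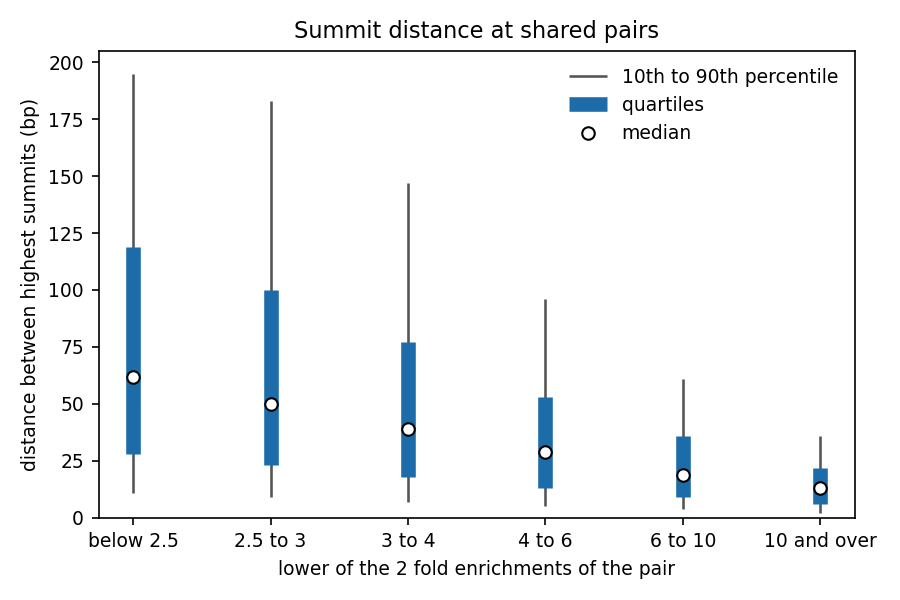
Distance in bp between the highest HOXA13 and HOXD13 summits of a pair, by the lower of the 2 folds. White points are medians, thick bars quartiles and thin lines the 10th to 90th percentile over pairs. The median falls from 62 to 13 bp.

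HOXD13-only regions differed from the others in where they lay in genes. Of HOXD13-only regions 19.6% were at a promoter, within 1 kb of the start of a protein-coding transcript (18.9 to 20.4%), against 9.54% of HOXA13-only (9.18 to 9.90%) and 9.12% of shared HOXA13 regions (8.85 to 9.40%), and 2.51% of positions taken every 10 kb along the genome. The gain was balanced by fewer intergenic sites, 34.9% against 40.7% of HOXA13-only and 40.7% of shared regions, and fewer introns, 36.2% against 40.1 and 41.0%. Coding exons held 0.465% of HOXA13-only, 0.307% of shared and 0.317% of HOXD13-only regions, below the 1.203% of genome positions. The median distance to a start was 26468 bp for HOXD13-only, 42900 bp for HOXA13-only, 48925 bp for shared HOXA13 regions and 57447 bp for genome positions.

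The promoter share went in opposite directions with strength. For HOXD13-only regions it was 16.4% below a fold of 2.5, 23.6% from 3 to 3.5 and 37.6% from 4 to 5 (31.5 to 44.0%, 86 of 229 regions), and all 5 regions with a fold of 8 or more were promoters. For HOXA13-only regions it was 10.8% below 2.5, 6.87% from 4 to 5 (5.70 to 8.27%) and 2.21% from 5 to 6. For shared regions of the HOXA13 list it was 14.8% below 2.5 and 3.58% at 8 and more. The intervals of the HOXD13-only and HOXA13-only shares did not overlap in any class from below 2.5 up to a fold of 5 to 6.

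**Figure D4:**
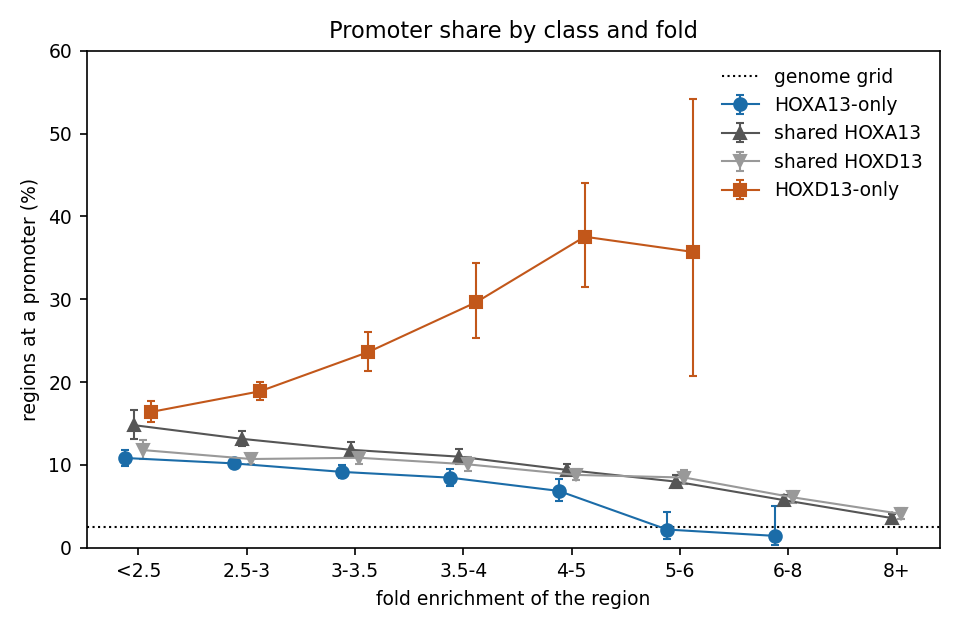
Percent of regions within 1 kb of a protein-coding start, by fold class and region class, with 95% Wilson intervals and classes under 20 regions left out. The dotted line is the 2.51% of genome positions. HOXD13-only regions rise from 16.4 to 37.6% at a fold of 4 to 5, while HOXA13-only and shared regions fall.

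The 10 strongest HOXD13-only regions spelled out this difference. The first 5 were promoters, of Cdca7 (a MYC-responsive cell cycle gene, fold 16.0, 233 fragments), Rnf187 (a ubiquitin ligase, fold 15.8), Cdc40 (a splicing factor, fold 10.4), Ccdc85c (fold 8.70) and Pip5k1c (a phosphoinositide kinase, fold 8.15). All 5 overlapped H3K27ac in DFL and PFL and neither CTCF nor H3K27me3. Of the others, those reported lay in introns of Shld1 and Gsk3b or between genes nearest to Vrk1 and Syt6, with folds of 6.93 to 7.81. In contrast, none of the 10 strongest HOXA13-only regions was a promoter, and 9 of 10 overlapped none of the 6 lists. They lay nearest to Golim4, G6pd2, 4930535I16Rik, Prim2, Igsf10, Stim2, Nectin3, Prlhr, Atp8b1 and Rnaseh2b, with folds of 8.64 to 11.5. Several were far from any start, for example 782793 bp at Stim2 and 691294 bp at G6pd2. Only the Rnaseh2b site carried H3K27ac.

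HOXD13-only promoters were also of a different base composition. The windows of 50 bp on each side of their summits had a median GC content of 59.4%. It was 48.5% at HOXA13-only, 49.5% at shared HOXA13 and 50.5% at shared HOXD13 promoters. Away from promoters the medians were, in the same order, 41.6, 42.6, 41.6 and 41.6%. The part of GC content, and of any difference in GC recovery between the libraries, in the promoter share was not tested. Windows that were mostly soft-masked repeat made up 12.6% of HOXD13-only, 6.01% of HOXA13-only and 4.18% of shared HOXA13 regions, against 30.4% of genome windows. Leaving such windows out raised the HOXD13-only promoter share to 21.2%.

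The HOX13 words within 50 bp of the summit were looked at as a check of the labels and for differences between the factors. The word CAATAAA, read on both strands, was found in 11.8% of shared HOXA13 windows (11.5 to 12.2%), 8.85% of HOXA13-only (8.50 to 9.20%) and 8.62% of HOXD13-only windows (8.09 to 9.19%). Windows 2 kb to either side held it in 2.44, 2.49 and 2.37%, and genome windows taken every 100 kb in 3.04%. Over all regions, both single-factor classes thus carried the word above their surroundings. The share in shared HOXA13 windows went from 8.25% below a fold of 2.5 to 14.1% at 8 and more. At like fold HOXA13-only windows were close, with 8.61 against 8.82% from 2.5 to 3 and 11.5 against 12.2% from 4 to 5. Above that, where few HOXA13-only regions lay, they were lower, 9.94 against 13.3% from 5 to 6 and 7.19 against 14.6% from 6 to 8. Away from promoters CAATAAA was in 10.06% of HOXD13-only and 9.21% of HOXA13-only windows. At promoters it was in 2.72% of HOXD13-only (2.09 to 3.54%), 5.41% of HOXA13-only and 7.26% of shared HOXA13 windows. Windows 2 kb from these promoter sites held it in 2.04, 2.04 and 2.41%, so that for CAATAAA HOXD13-only promoters were little above their surroundings. RefSeq promoters of the mouse reference (GRCm38, a window of the same length inside the promoter) held it in 1.68%. The wider CNATAAA or CGTAAA, added after values were seen, did stand above the surroundings at HOXD13-only promoters. At promoters it was in 9.63% of HOXD13-only, 16.6% of HOXA13-only and 21.3% of shared windows. Windows 2 kb away held the wider word in 5.67, 5.97 and 6.63%, and RefSeq promoters in 4.43%.

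The rarer word with a CpG, TCGTAAA, differed in frequency between the 2 single-factor classes, though few windows of either held it. It stood in 2.13% of HOXA13-only windows (1.96 to 2.31%) and 1.92% of shared windows (1.80 to 2.06%), but in 1.07% of HOXD13-only windows (0.886 to 1.29%), with 0.175, 0.160 and 0.243% in the neighbouring windows. Away from promoters the shares were 2.17% for HOXA13-only and 1.17% for HOXD13-only windows. Among regions with a fold of at least 5 it was in 10 of 517 HOXA13-only (1.93%) and 1 of 52 HOXD13-only windows (1.92%). So few windows cannot tell whether the difference holds at this fold. The wider CNATAAA or CGTAAA was in 28.2% of these HOXA13-only and 17.3% of these HOXD13-only windows. Among all words of 7 bases present in at least 1% of windows, CTCGTAA and TCGTAAA led the HOXA13-only class, 12.2 and 12.1 times more frequent than in the neighbouring windows, and TCGTAAA also led the shared class at 12.1 times. CCATAAA and CTATAAA were enriched 5.37 and 4.96 times in shared windows. In the HOXD13-only class the 10 leading words were all built of G and C. They were led by GCGCCGC, which stood in 1.57% of HOXD13-only, 0.319% of shared and 0.161% of HOXA13-only windows. This ranking took promoter and other windows together. Away from promoters HOXD13-only windows had a median GC content of 41.6%, and CAATAAA was 4.12 times as frequent as in the neighbouring windows.

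**Figure D5:**
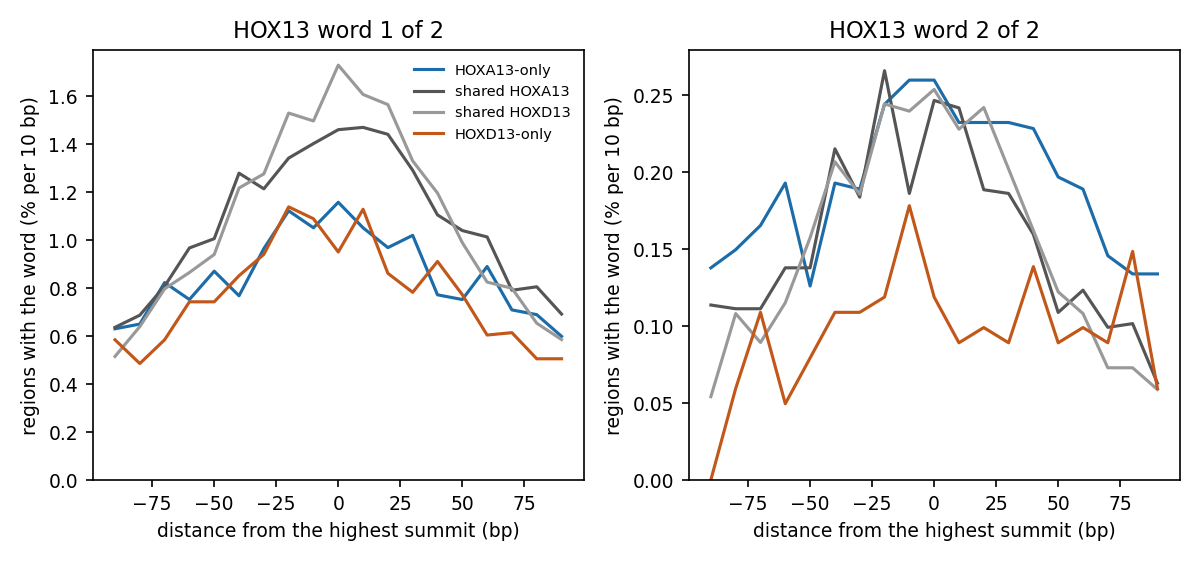
Percent of regions per 10 bp with CAATAAA (left, word 1) or TCGTAAA (right, word 2) on either strand, against the distance in bp of the centre of the word from the highest summit. Word 1 is most frequent near the summit, with 1.46% of shared HOXA13 and 1.73% of shared HOXD13 regions in the central bin, against 0.691 and 0.585% at 90 bp.

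The GC box GGGCGG, bound by SP and KLF factors, showed the opposite order. It was present in 6.95% of HOXD13-only (6.47 to 7.46%), 2.98% of shared HOXD13, 2.43% of shared HOXA13 and 1.74% of HOXA13-only windows. Within promoters it was in 25.1% of HOXD13-only (23.2 to 27.0%), 14.8% of shared HOXD13, 10.9% of shared HOXA13 and 6.85% of HOXA13-only windows. RefSeq promoters held it in 19.2%. Shared windows thus held the word more often when read around the HOXD13 summit. Words of other limb factors differed less from the neighbouring windows than CAATAAA did. In shared windows the E-box was more frequent, and the MEIS and AP-1 words were less frequent, than in the neighbours. The MEIS word TGACAG was in 5.75% of shared HOXA13 windows and 6.87% of their neighbours, the AP-1 word TGANTCA in 2.73 and 3.06%, and the E-box CAGATG in 9.81 and 7.81%.

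Chromatin marks were compared with care, as they came from pieces of E12 buds rather than E11 whole buds. Away from promoters H3K27ac of DFL overlapped 29.3% of shared HOXA13 regions, 13.6% of HOXA13-only (13.1 to 14.0%) and 12.7% of HOXD13-only regions (12.04 to 13.5%), so that neither single-factor class stood out. For H3K27ac of PFL the shares were 25.1, 14.9 and 12.8%. The share of shared HOXA13 regions was higher for DFL, and that of HOXA13-only regions for PFL. Shared regions were also longer and of higher fold than single-factor ones, and the part of either in these shares was not tested. At a fold of 2.5 to 3, promoters included, DFL H3K27ac overlapped 27.5% of shared HOXA13 and 18.5% of HOXA13-only regions. In the HOXD13 list it overlapped 23.4% of shared and 24.4% of HOXD13-only regions of this fold, of which 10.7 and 18.9% lay at promoters. At promoters H3K27ac of DFL covered 82.2% of shared, 80.8% of HOXD13-only and 70.2% of HOXA13-only regions. H3K27me3 of PFL was more frequent at HOXA13-only promoters, 10.3% (9.13 to 11.6%), than at shared HOXA13 (5.86%) or HOXD13-only promoters (2.82%, 2.18 to 3.65%). CTCF of DFL overlapped between 7.88 and 9.45% of the 4 classes.

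Genes were then read from their side, counting regions whose summit lay within 50 kb of a protein-coding start. Of 21619 genes, 67.5% had a shared region, 27.0% a shared pair with a fold of at least 5 in both lists, 58.7% a HOXA13-only region and 40.2% a HOXD13-only region. Genes nearest to single-factor regions were mostly also nearest to shared ones. Of all 21619 genes, 9906 were nearest to a shared HOXA13 region. Of the 8701 genes nearest to a HOXA13-only region 73.1% were also nearest to a shared region, and of the 5617 genes nearest to a HOXD13-only region 75.3% were, which were 64.2 and 42.7% of the genes nearest to a shared region. The genes nearest to the most shared HOXA13 regions were Tenm3 (90 regions), Zfp608 (87), Auts2 (79), Adgrl2 (78) and Adgrl3 (63), which are flanked by wide gene-poor stretches. Auts2 (44), Adgrl2 (42), Sox9 (38), Tenm3 (38) and Epha4 (36) came first for HOXA13-only regions. Adgrl2 (22), Robo2 (22), Adgrl3 (17), Auts2 (16) and Robo1 (16) came first for HOXD13-only regions. Robo1 and Robo2 are axon guidance receptors, and Sox9, with 44 shared, 38 HOXA13-only and 9 HOXD13-only regions, is the master regulator of cartilage.

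The genes of distal limb identity were near many regions of every class. All 30 genes of the list had a shared region within 50 kb and 24 (80.0%) a strong shared pair, against 67.5% and 27.0% of all genes. A HOXA13-only region was near all 30 and a HOXD13-only region near 25, against 58.7 and 40.2% of all genes. The median number of shared regions was 7, against 1 over all genes. Not all genes of the list are separate observations. Hoxd10 to Hoxd13 had the same strongest pair, as did Hoxa11 and Hoxa13, and Dlx5 and Dlx6. The Hox genes and Evx2, which count many of the same regions, had 16 to 18 shared regions each and raise these shares and the median. The strongest pair near Jag1, a Notch ligand, at chr2:137166064-137166878, had folds of 13.3 (HOXA13) and 10.97 (HOXD13) and a DFL H3K27ac region. Near Msx2, a homeobox factor of the limb mesenchyme, the folds were 11.8 and 10.7, near Aldh1a2, a retinoic acid synthase, 10.7 and 8.81, near Tfap2a 10.1 and 6.85, and near Lhx9, a LIM homeobox factor, 7.99 and 8.90. The 6 genes with shared regions but no strong pair were Sall1, Tbx3, Cyp26b1, Epha4, Epha7 and Enpp2. At Tbx3, a T-box factor of the digit field, the best pair was uneven, with a HOXA13 fold of 3.97 and a HOXD13 fold of 8.63 and summits 291 bp apart.

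Proximal, signalling and cartilage genes are set against the same shares of all genes, 67.5% with a shared region, 27.0% with a strong pair, 58.7% with a HOXA13-only and 40.2% with a HOXD13-only region. Of 25 proximal limb factors, 25 had a shared region, 17 (68.0%) a strong pair, 22 a HOXA13-only and 20 a HOXD13-only region, with a median of 4 shared regions. Hoxa9 and Hoxa10 of this list had the same strongest pair, as did Hoxd8 and Hoxd9, and are not separate observations. Tbx15, a T-box factor of the limb girdle, had folds of 16.9 and 14.2 in its intron, Tbx18 13.3 and 12.2, and Meis2, a proximal homeobox factor, 10.5 and 8.84 at summits 1 bp apart. Of 32 limb signalling genes, 29 had a shared region, 17 (53.1%) a strong pair, 26 a HOXA13-only and 20 a HOXD13-only region. Strong pairs were near Bmp4 (14.1 and 11.7), Bmp2 (10.6 and 10.5), Ptch1, the Hedgehog receptor (10.1 and 11.2), and Wnt5a (11.5 and 9.88). The shared pair near Shh was uneven the other way, 7.18 for HOXA13 and 2.99 for HOXD13. Wnt7a, Dkk1 and Rspo2 had none. Of 24 cartilage and joint genes all had a shared region, 17 (70.8%) a strong pair, 19 a HOXA13-only and 13 a HOXD13-only region. Strong pairs were near Runx3 (14.9 and 13.4), Runx2 (13.7 and 11.5), Gdf6 (14.3 and 10.8) and Gdf5, a joint growth factor (10.5 and 10.2).

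Genes of other cell types were near fewer strong pairs than the lists above. Strong shared pairs were near 7 of 20 muscle genes, 9 of 20 ectoderm genes, 10 of 20 endothelium and blood genes, 6 of 20 nerve and glia genes and 6 of 20 housekeeping genes, against 27.0% of all genes. Shared regions were near 18, 16, 17, 13 and 18 of them, against 67.5% of all genes. HOXA13-only regions were near 13, 14, 10, 17 and 14, against 58.7%, and HOXD13-only regions near 6, 6, 7, 10 and 12, against 40.2%. The nerve list was thus below all genes for shared regions (13 of 20), and the endothelium and blood list for HOXA13-only regions (10 of 20). For HOXD13-only regions the muscle and ectoderm lists (6 of 20 each) and the endothelium and blood list (7 of 20) were below. In each class the remaining lists of this group were above all genes. The HOXD13 fold was the higher near Grhl3, an epidermal factor (12.4 for HOXA13 and 19.95 for HOXD13), and near Fli1, an endothelial factor (7.95 and 11.6). The HOXA13 fold was the higher near Met, a receptor of migrating muscle precursors (13.5 and 9.16).

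Within the Hox clusters themselves the strongest regions were shared. All 22 genes of the 2 clusters had a shared, a HOXA13-only and a HOXD13-only region within 50 kb, and 21 a strong pair. The HoxA cluster with Evx1 held 28 shared HOXA13, 29 shared HOXD13, 7 HOXA13-only and 4 HOXD13-only regions. The HoxD cluster from Evx2 to Hoxd1, chr2:74652991-74765142, held 16 shared regions in each list, 5 HOXA13-only and 5 HOXD13-only regions. The strongest shared region of HoxA was at the Hoxa4 promoter, with folds of 12.7 (HOXA13) and 10.1 (HOXD13), and that of HoxD at the Hoxd3 promoter, with 9.06 and 10.8. Single-factor regions of the clusters did not exceed a fold of 4.28 for HOXA13, near Hoxa13, and 3.14 for HOXD13, a value reached near Hoxd12. Genes of a cluster share these regions within 50 kb and are not separate observations.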

How the data were processed

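ChIP-seq of HOXA13 and HOXD13 in wild-type E11 whole forelimb buds, 1 library each, was taken as peak lists of the authors. Per the labels and the study's methods, the authors used cutadapt for trimming and Bowtie for mapping to mm10, and reads were filtered with SAMtools on mapping quality and called with MACS2 per library, without input control. The deposited columns are fold (a ratio of pileup to local background), −log10 p, −log10 q (a score of the peak caller) and the distance of the summit from the peak start. Rows of the same interval were collapsed. Pileup and background were solved from fold and −log10 p as (pileup + 1) / (background + 1) with the Poisson tail, at a tolerance of 0.0001, for all HOXA13 and all but 1 HOXD13 regions (52659 of 52660), and scripts were tested on simulated data.

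Genes and starts were taken from GENCODE M21 and sequences from the GRCm38 reference, the same build as mm10. Words were searched on both strands within 50 bp of the summit, in windows 2 kb to either side and in genome windows every 100 kb. Promoters were taken as 1 kb from a protein-coding start. Members and gene lists were chosen with earlier results of these data known. Named sites are the 10 pairs best by the worse of their 2 fold ranks and the 10 strongest regions of each single-factor class, leaving out regions that overlap all 6 other lists, the 5 pairs with the highest and lowest fold ratio, the 5 genes with the most regions per class, the Hox cluster genes and the gene lists. Some sites that these rules name are not reported here. Example genes within a list were chosen after their values were seen, and CNATAAA or CGTAAA was added then. Each result was recomputed with other overlap rules, thresholds, list sizes and windows. Python 3.11.15, numpy 2.4.6, pandas 2.3.3, scipy 1.17.1 and statsmodels 0.14.6 were used.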

Additional observations from a re-analysis of the deposited data

Results flagged for a closer look

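Rows outside the 19 autosomes and chromosome X entered no comparison, and were singled out because they hold more than the 3 counts that a count of 0 allows. The HOXA13 list held 22 rows on the mitochondrial genome, 19 on chromosome Y and 69 on unplaced or random sequences. The HOXD13 list held 25, 38 and 147. The shorter HOXD13 list thus held more of these rows in each of the 3 classes.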

How the results depend on the processing

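In each alternative run for the promoter share, HOXD13-only regions were at promoters more often than HOXA13-only ones. Small differences between the factors did turn round. The fold ratio was higher for HOXA13 (1.54) than for HOXD13 (1.39), but lower at equal list sizes. CAATAAA was in 8.85% of HOXA13-only and 8.62% of HOXD13-only windows, and in more HOXD13-only than HOXA13-only windows at least 1 kb from the other list and away from promoters. No paired analysis was possible because each factor had 1 library and no result came from a test. Leaving out the regions found in all 6 other lists moved no value beyond its interval. An overlap of at least 50% of the shorter region gave shares of 60.5% (HOXA13) and 78.7% (HOXD13), fold ratios of shared to single-factor regions of 1.58 and 1.42, and promoter shares of 9.98% (HOXA13-only) and 8.82% (shared). With the summit inside the other region, the shares were 60.8 and 79.0% and the fold ratios 1.57 and 1.42. A −log10 q of at least 5 gave shares of 65.2 and 85.2%, fold ratios of 1.46 and 1.39, a summit distance of 27 bp, promoter shares of 8.60% (HOXA13-only), 20.9% (HOXD13-only) and 7.57% (shared), and CAATAAA in 10.8, 10.2 and 12.96% of these classes. A fold of at least 5 in both lists gave shares of 61.5 and 86.2%, fold ratios of 1.39 and 1.29, 19 bp, promoter shares of 6.52, 14.9 and 4.999%, and CAATAAA in 13.4, 9.97 and 14.2%. Under such thresholds some regions become single-factor because their partner was removed. Equal list sizes gave shares of 72.2 and 74.5%, fold ratios of 1.43 and 1.45, 33 bp, promoter shares of 8.86, 18.4 and 8.63%, and CAATAAA in 9.51% of HOXA13-only and 12.2% of shared windows. Pileup over the lowest background gave fold ratios of 1.71 and 1.48, and the nearest of any summits 31 bp. Promoters within 5 kb made up 18.4, 28.6 and 16.7%, and windows of 100 bp on each side held CAATAAA in 15.2, 13.8 and 18.9%, both being wider by construction. The cause of the other shifts was not tested.

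Some alternatives were chosen after seeing the data. Regions at least 1 kb from the other list were at promoters in 8.03% (HOXA13-only) and 17.1% (HOXD13-only), with CAATAAA in 9.08 and 9.23%. Without repeats 21.2% of HOXD13-only regions were promoters. Without promoters CAATAAA was in 9.21% (HOXA13-only), 10.06% (HOXD13-only) and 12.3% (shared) of windows. The wider CNATAAA or CGTAAA, promoters included, was in 24.3, 21.4 and 30.8%, and away from promoters in 25.2, 24.3 and 31.7%. Depth limits what a single-factor region means, since weak binding of the other factor would not be listed.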

Other observations

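Words with a CCC and GGG arm, CCCNNGGG with N any base, followed the lean of the sites to HOXA13. This word was chosen after the values of the 7 base words were seen, and what binds it was not tested. It was present in 11.99% of the 517 HOXA13-only windows with a fold of at least 5 (9.47 to 15.1%) and in 11.1% of the 1063 shared pairs with a 2-fold higher HOXA13 fold (9.35 to 13.1%). Over all shared HOXA13 windows it was in 4.62%, over shared windows with a fold of at least 5 in 5.65%, and over all HOXA13-only windows in 4.61%. In HOXD13-only windows it was in 3.55%, or 2.76% away from promoters, and in 2 of 108 pairs with a 2-fold higher HOXD13 fold. Neighbouring windows held it in 1.90 to 2.13% of the HOXA13-only classes, and genome windows in 1.49%. Pairs with the word had a median log2 ratio of HOXA13 to HOXD13 fold of 0.26, against 0.17 without it. Of the 10 HOXA13-only regions of highest fold, 3 held it (Golim4, 4930535I16Rik and Prim2), and the other 7 did not.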
